A study of Mus musculus with 6 samples.

Results

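The transcription factor PU.1 binds a purine-rich DNA element through its ETS domain and is required for the myeloid and B-lymphoid lineages. In myeloid cells it is known to occupy many enhancers, some of which are also used by other lineage factors. It is also known for its ability to bind sites in closed chromatin and open them, and its level in the cell bears on which sites it occupies. The sites described here are those where PU.1 peaks appeared after its induction at a large distance from any peak listed before induction. Peaks were merged into regions where they overlapped by at least 1 bp, and a region was called gained when both induced libraries and neither uninduced library had a peak there. The regions were chosen from this presence and absence of peaks: gained regions with no peak of either uninduced library within 50 kb, edge to edge, are called isolated. There were 2159 isolated gained regions among 18414 gained regions and 82810 regions in all. They made up 11.7% of the gained regions and 2.61% of all regions.

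The cells were mouse iBN cells, which the labels class as granulocyte-macrophage progenitors. They were grown with the cytokine GM-CSF and carried a system for inducing PU.1. Induced cells received doxycycline at 1000 ng per ml for 72 hours and uninduced cells did not, with 2 PU.1 ChIP-seq libraries in each group. The uninduced cells carried the same system, and the labels do not give the genotype of the line, nor whether replicates were separate cultures, so the spread between replicates may be technical. Binding was measured and expression was not, so the cell type could not be checked against marker genes.

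The deposited lists held 68076 and 57336 peaks for induced replicates 1 and 2, and 31960 and 42951 for uninduced replicates 1 and 2. Read depth is unknown. The longer of the uninduced lists overlapped the induced lists, which hold more peaks, more than it overlapped its own replicate: 82.8% and 78.5% of the peaks of uninduced replicate 2 overlapped induced replicates 1 and 2, and 57.9% overlapped uninduced replicate 1. Of the peaks of uninduced replicate 1, 77.5% overlapped uninduced replicate 2, and 73.6% and 69.7% overlapped induced replicates 1 and 2. Of the 82810 merged regions, 22.2% were gained. With 2 libraries against 2, an exact two-sided permutation test cannot give a p below 0.333, and the lists that chose the regions are the lists described, so the values below carry no test. Each peak has 1 score, given by the authors' peak caller, which ranks peaks within a list; no score is below 50. Intervals beside shares are 95% Wilson intervals, which account for counting error alone. Positions are in mouse build mm9, counted from 1, and no gene annotation or sequence of that build was used, so regions are named by position and no gene is assigned to them.

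The strongest isolated gained region lay at chr18:23261180-23263250, 108 kb from the nearest uninduced peak. Its peak scored 3002.05 in induced replicate 1 and 2435.33 in induced replicate 2, which made it the peak of rank 461 and 240 in those lists. The second lay at chr10:118250654-118252669, with scores of 2118.9 and 1429.53 and the nearest uninduced peak 53.8 kb away. The third, at chr6:141863771-141865146, scored 1245.62 and 1227.17 and lay 165 kb from uninduced binding. These 3 were the only isolated regions with a score of at least 1000 in both induced libraries, against 9 of the 16255 gained regions that had an uninduced peak within 50 kb.

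The remaining regions of the 10 strongest, ordered by the lower of their induced scores, were much closer to each other in score. The region at chr15:101427786-101429117 scored 1247.3 and 966.11 in induced replicates 1 and 2, and the region at chr14:9446510-9447787 scored 1088.76 and 944.76. The region at chr12:51689753-51690884 scored 948.67 and 915.4, and its next isolated gained region lay 1834 kb away. Of the strongest regions, chr14:9446510-9447787 lay 269 kb and chr6:138650784-138651977 lay 522 kb from uninduced binding, the farthest of the 10. On chromosome 6, chr6:42961886-42964172 scored 1366.99 and 896.34. It was followed by chr9:43469769-43470953 with 1270.65 and 883.02. Last came chr6:138650784-138651977 with 1403.95 and 880.87, and chr3:99342694-99345056 with 1107.01 and 858.43. Every one of the 10 scored higher in induced replicate 1 than in induced replicate 2, as did 74.2% of all isolated regions. None of the 10 overlapped a peak of the authors' merged uninduced list, which had a peak at 1.76% of all isolated regions.

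**Figure D1:**
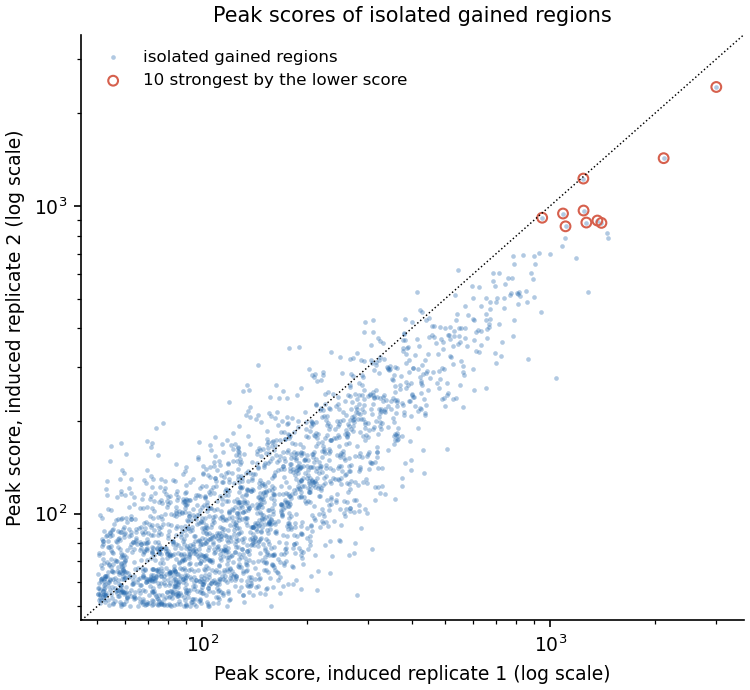
Scores of the 2159 isolated gained regions in induced replicate 1 (x axis) and induced replicate 2 (y axis), both on log scales without units. Each point is a region, circles mark the 10 strongest and the dotted line marks equal scores. Most points lie below the line (1603 of 2159), and 1 circle stands far above the rest in both libraries.

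Scores of the isolated regions lay below the middle of the induced lists at the median. In induced replicate 1 they ran from 50.07 to 3002.05 with a median of 132 and quartiles of 85.03 and 220, and in induced replicate 2 from 50.07 to 2435.33 with a median of 99.5 and quartiles of 70.6 and 157. The median isolated peak stood at percentile 42.8 of the list of induced replicate 1 and at percentile 36.3 of induced replicate 2. The median peak of the other gained regions stood at percentiles 44.5 and 33.8. For comparison, regions with a peak in all 4 libraries had medians of 494 and 318. A region with no listed uninduced peak is by that rule less likely to be a strong one. Across the 2159 regions the ranks of the 2 scores went together, with a Spearman rho of 0.756 (0.731 over the other gained regions). The points share their libraries and the lower limit of the score, so this is a description. Induced replicate 1 gave the higher score at 74.2% of isolated regions and at 80.4% of other gained regions.

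Isolated gained regions were not set apart from the other gained regions by their median score. In induced replicate 1 the median was 132 for isolated and 139 for other gained regions, and in induced replicate 2 it was 99.5 and 94.1, so the order differed between the replicates. Without uninduced replicate 2 in the rule, the isolated regions had the lower median in both induced libraries, by differences of -22.8 and -4.56. At scores of 500 or more the isolated share was the larger in both libraries, which score the same regions. At a score of 199.4 in induced replicate 1 it was the smaller (29.2% against 30.4%). The contrast at high scores was not repeated with other settings. Scores of at least 500 were reached by 118 isolated regions (5.47%) and 767 other gained regions (4.72%) in induced replicate 1, and by 49 (2.27%) and 207 (1.27%) in induced replicate 2. In both libraries together, 48 isolated regions (2.22%, interval 1.68 to 2.94%) and 203 other gained regions (1.25%, 1.09 to 1.43%) reached 500. Isolated regions thus made up 11.7% of all gained regions, 14.1% of the 1000 strongest, 20 of the 100 strongest and 3 of the 10 strongest. Peaks at isolated regions were slightly narrower. In induced replicate 1 their median width was 916 bp and that of other gained peaks 968 bp, and in induced replicate 2 the widths were 861 and 895 bp. Regions of 3 kb or wider made up 0.185% of the isolated (4 regions) and 0.437% of the other gained regions (71).

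**Figure D2:**
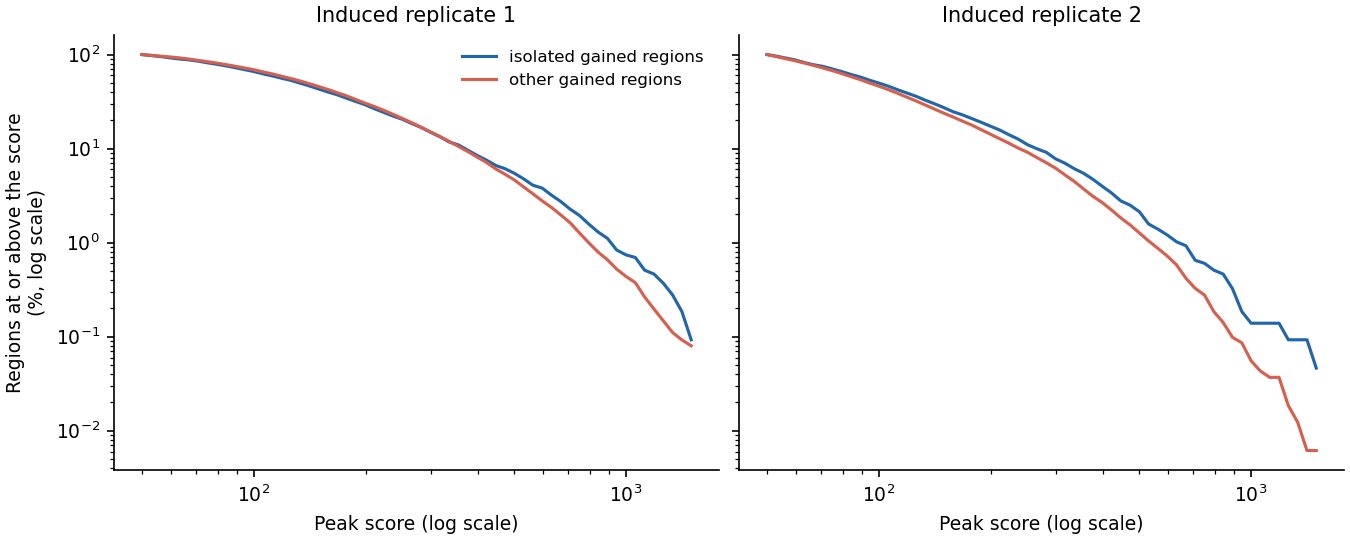
Share of isolated (blue) and other gained (red) regions at or above each peak score, in percent, for induced replicate 1 (left) and induced replicate 2 (right), with log scales on both axes. The curves lie close together at low scores, and above a score of 500 the isolated regions have the larger share in both libraries (5.47% against 4.72%, and 2.27% against 1.27%).

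Isolated regions lay a median of 80.2 kb from the nearest uninduced peak, with quartiles of 62.5 and 121 kb. The distance exceeded 100 kb for 749 regions (34.7%), 200 kb for 191 (8.85%) and 500 kb for 11 (0.509%). Over all gained regions the median distance was 8.61 kb. The farthest was chr12:108603997-108604933, 802 kb from any uninduced peak, where the peaks of induced replicates 1 and 2 scored 91.87 and 72.73. Next came chr7:61468284-61469269 at 651 kb (scores 206.22 and 128.99), chr16:6174560-6175410 at 642 kb (98.0 and 92.97), chr1:49607905-49609054 at 626 kb (221.01 and 205.87) and chr12:107896245-107897129 at 626 kb (115.87 and 64.45). The next isolated gained region lay 622 to 2115 kb from each of these 5. The 191 gained regions centred beyond 200 kb had median scores of 130 and 93.5 in induced replicates 1 and 2. The medians of all isolated regions were 132 and 99.5.

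At the 50 kb limit itself, the scores of the 3 nearest regions on each side overlapped, which is too few to compare the sides. Just inside were chr12:35582792-35584024 (50.089 kb, scores 428.97 and 453.4), chr19:23525575-23526961 (50.117 kb, 422.74 and 220.37) and chr5:146322052-146323047 (50.126 kb, 72.12 and 66.29). Just outside were chr11:5466354-5467022 (49.99 kb, 90.8 and 152.48), chr10:7917355-7918398 (49.948 kb, 142.29 and 118.2) and chrX:135868745-135871110 (49.947 kb, 637.36 and 379.53).

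Gained regions thinned out with distance from uninduced binding. For this count, distance was taken from the centre of each region, and the space at each distance was measured between the first and the last peak of each chromosome. Gained regions numbered 8.25 per Mb within 1 kb of an uninduced peak, where a region that touches an uninduced peak is by rule not gained. They numbered 21.8 per Mb at 1 to 2 kb, 9.11 per Mb at 10 to 20 kb, 3.36 per Mb at 50 to 100 kb, 1.81 per Mb at 100 to 200 kb and 0.987 per Mb beyond 200 kb. The density fell 22.1-fold from 1 to 2 kb to beyond 200 kb. The space beyond 50 kb was 36.8% of the total, or 929 Mb, and held 2.35 gained regions per Mb, against 10.2 per Mb in the 1597 Mb nearer to uninduced peaks. Unmappable sequence was not removed from this space, and its part in the decline was not tested. Regions found in 1 induced library alone declined too, by 23.4-fold for induced replicate 1 and by 14.1-fold for induced replicate 2.

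Induced peaks were found in both induced libraries about as often far from uninduced binding as near it. Of all 34393 regions without an uninduced peak, 53.5% were in both. Beyond 50 kb the share was 54.6% (2159 of 3955, interval 53.0 to 56.1%), and within 50 kb it was 53.4% (16255 of 30438, interval 52.8 to 54.0%). It was 53.1% (47.9 to 58.2%) in the regions beyond 200 kb, where 191 were in both. Taken by library, the shares moved in opposite directions. Of the regions of induced replicate 2, 82.0% beyond and 85.4% within 50 kb were also in induced replicate 1. Of the regions of induced replicate 1, 62.0% beyond and 58.7% within 50 kb were also in induced replicate 2. The regions beyond 50 kb that were left out as single-library calls numbered 1322 in induced replicate 1 and 474 in induced replicate 2, with median scores of 66.2 and 59.6. These medians were close to the lowest score listed, and so were the 68.4 and 59.3 of single-library calls within 50 kb.

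**Figure D3:**
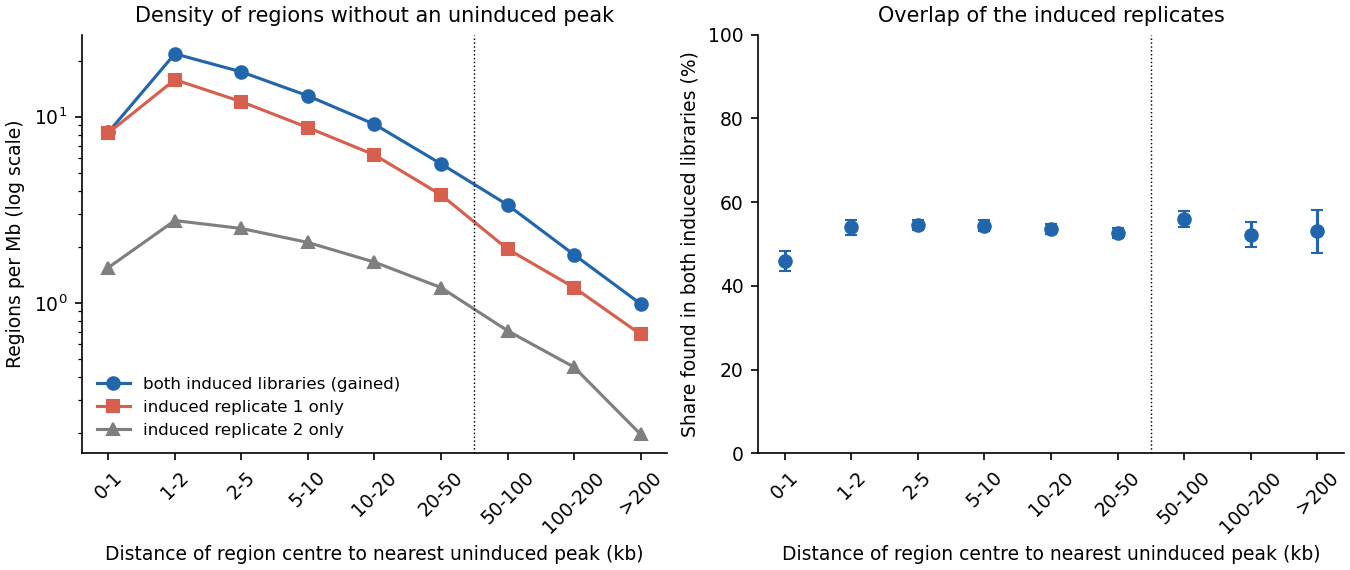
Left, regions per Mb without an uninduced peak (log scale) by distance of the region centre to the nearest uninduced peak in kb, for regions in both induced libraries and in 1 alone; right, the share found in both, with 95% Wilson intervals, and the 50 kb limit as a dotted line. Gained regions fell from 21.8 per Mb at 1 to 2 kb to 0.987 per Mb beyond 200 kb, and the share in both libraries stayed between 52.2 and 55.9% over those distances (45.9% within 1 kb).

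The uninduced peaks nearest to isolated regions were often ones with no listed peak in either induced library. For 865 of the 2159 isolated regions (40.1%), the nearest region with an uninduced peak had no peak in either induced library. This was so for 2140 of the 16255 other gained regions (13.2%), and 22.9% of all 48417 regions with an uninduced peak were of this kind. The counts are per gained region, so an uninduced region near several of them can be counted more than once. The 48417 were not limited to regions beside long stretches free of uninduced peaks, so the part of sparse surroundings was not tested. For 616 isolated regions (28.5%) the nearest region with an uninduced peak had a peak in 1 uninduced library and in none of the other 3. For 249 (11.5%) it had a peak in both uninduced libraries and in neither induced library. Over all regions with an uninduced peak these kinds made up 16.4% and 6.51%. For 558 (25.8%) it had a peak in both induced libraries and in 1 uninduced library, and for 553 (25.6%) in all 4 libraries. The shares of these kinds over all regions with an uninduced peak were 27.9% and 40.05%. Measured to regions present in all 4 libraries, isolated regions lay a median of 159 kb away, and 314 of them (14.5%) lay over 500 kb away. For other gained regions the median was 16.9 kb, and 1.32% lay over 500 kb away.

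The authors' merged lists, which the rule did not use, come from the same libraries. The merged induced list had a peak at 2153 of the 2159 isolated regions (99.7%). The merged uninduced list had a peak at 38 of them (1.76%), against 4.23% of the other gained regions, and within 50 kb of 166 (7.69%), which leaves 1993 with none within 50 kb in any of the 3 uninduced lists. The 38 merged uninduced peaks were weak, with scores from 50.05 to 78.94 and a median of 59.2, where the whole list had a median of 126. At all 38 the merged induced peak had the higher score, with a median of 210. The rule favours this order, and a score ranks peaks only within its own list, so no difference in binding is read from it. The highest of the 38 merged uninduced peaks, at chr17:4993383-4997270, scored 78.94, and the merged induced list gave 1204.71 there. An absent peak therefore means that no peak passed the authors' threshold, and not that PU.1 was absent.

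Isolation from uninduced binding did not always mean standing alone, although isolated regions stood alone more often than other gained regions. Another isolated gained region lay within 50 kb of 950 of the 2159 regions (44.0%), within 10 kb of 494 (22.9%) and within 2 kb of 186 (8.62%). Another peak of either induced library lay within 50 kb of 68.8% of the isolated regions and of 98.0% of the other gained regions. The 674 isolated regions (31.2%) without one had median scores of 123 and 97.4 in induced replicates 1 and 2. These were a little below the 136 and 100.3 of the remaining isolated regions. Other gained regions were far more crowded: 69.1% of them had another region of both induced libraries within 10 kb, against 23.9% of the isolated ones. The rule itself removes the neighbours that were bound before induction.

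Isolated regions that had a close neighbour scored higher. Those with another isolated region within 2 kb had median scores of 159 and 113 in induced replicates 1 and 2, against 130 and 98.3 for the rest. The regions were put in order of their lower induced score and divided into 10 groups of 215 or 216. Of the strongest group 15.7%, and of the weakest 4.63%, had another isolated region within 2 kb, and 58.3% and 43.5% had one within 50 kb. The shares of the groups between them ran from 6.51 to 10.6% within 2 kb and from 39.4 to 47.7% within 50 kb. Median width fell from 1188 bp in the strongest group to 856 bp in the weakest, and median distance to uninduced binding was 85.7 and 82.1 kb.

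Among the 10 strongest regions, 7 had another isolated region within 50 kb and 5 had one within 2 kb. The 2071-bp region on chromosome 18 had its nearest such neighbour 14522 bp away, and that neighbour scored 177.68 and 122.28. The strong region on chromosome 10 had 5 isolated neighbours within 50 kb, and the nearest, 802 bp away, scored 815.53 and 526.35. On chromosome 6, chr6:42961886-42964172 lay 420 bp from a region of like strength, chr6:42958919-42961465, which scored 1467.59 and 788.54. The close neighbours on chromosomes 15, 9 and 3, at 53, 1074 and 561 bp, had scores from 85.83 to 147.1. These lay near the medians of all isolated regions, 132 and 99.5 in induced replicates 1 and 2. Whether peaks this close were 1 bound stretch that the peak caller listed in parts was not tested.

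Regions within 50 kb of the next fell into 1598 groups, of which 1209 were single regions and 389 held 2 or more. There were 44 groups of at least 4 regions, with 207 regions in all, and the largest groups held 7. The first of these spanned 96.6 kb at chr2:141438863-141535456, with 5.31 to 29.8 kb between neighbours and scores from 77.5 to 418.35 in induced replicate 1 and from 50.78 to 215.26 in induced replicate 2. The other spanned 87.3 kb at chr6:47257461-47344770, with scores from 58.67 to 448.62 and from 63.82 to 432.22. The next largest spanned 93.5 kb at chr4:123680505-123773988 and held 6 regions, with scores from 103.11 to 487.76 and from 83.08 to 314.93. In each of the 3 groups no region reached 500 in either library. The strong region on chromosome 10 belonged to another group of 6, at chr10:118202710-118252669.

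**Figure D4:**
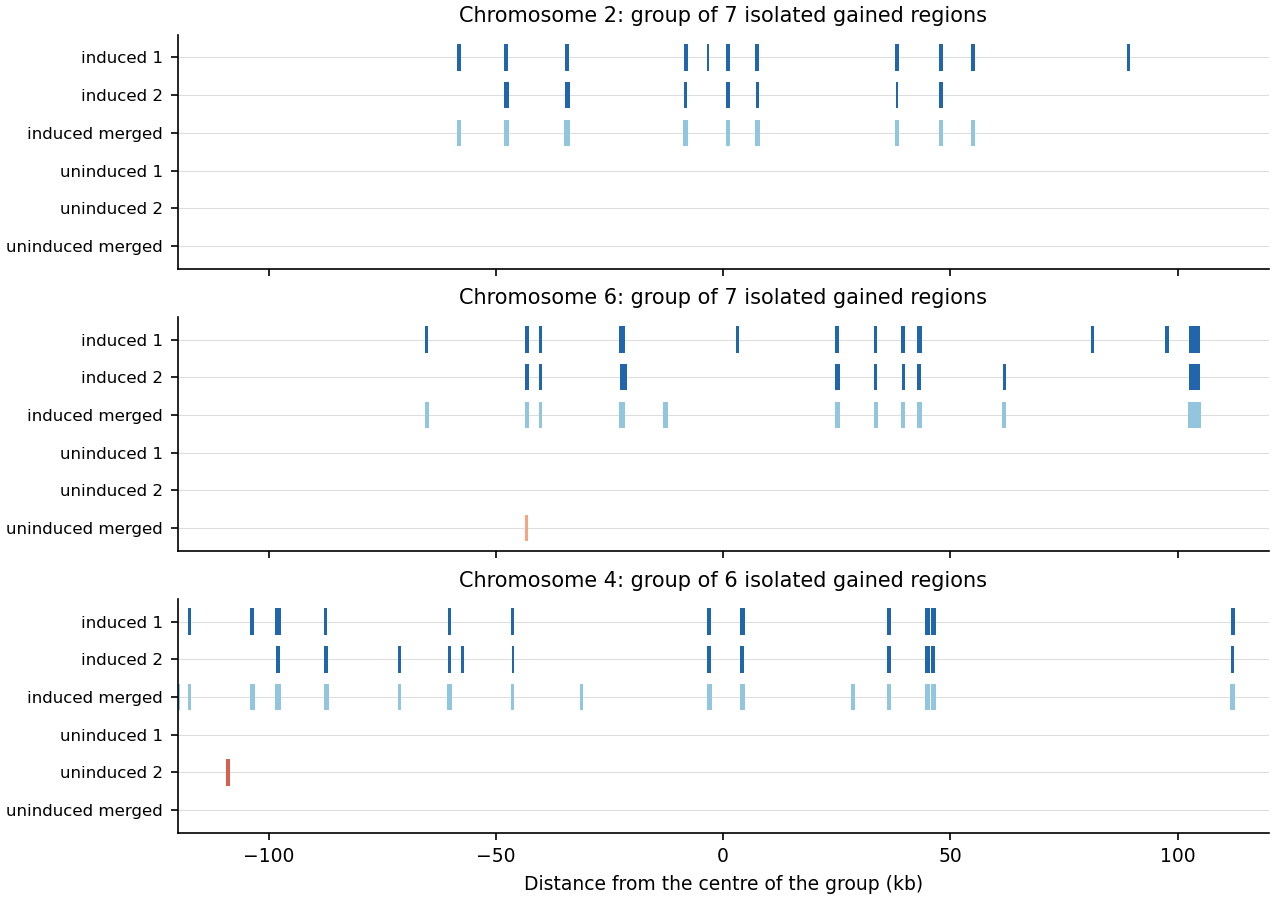
Peaks of each deposited list (rows) around the 3 largest groups of isolated gained regions, by distance from the centre of the group in kb; each bar is a peak drawn to scale. Besides the isolated regions, which by rule have a peak in both induced libraries, each map holds peaks of 1 induced list alone. The chromosome 4 and 6 maps also hold peaks of both induced libraries outside the group, not all of them at isolated regions. The strongest of these on the chromosome 6 map scored 511.71 and 316.94 in induced replicates 1 and 2. The uninduced libraries have no peak on the chromosome 2 and 6 maps and 1, in uninduced replicate 2, on the chromosome 4 map. The merged uninduced list has 1 peak, on the chromosome 6 map.

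The stretches that could hold an isolated region far outnumbered the 2159 isolated regions, so most of them necessarily held none. Uninduced peaks left 6460 empty stretches long enough for a site more than 50 kb from any of them, with a median length of 180 kb. Of these, 1367 (21.2%) held an isolated gained region and 885 held exactly 1, while 38 held 5 or more. Stretches with an isolated region had a median length of 249 kb and those without had 165 kb. The fullest was the 878-kb stretch at chr6:46543487-47421655, which held 11, among them the group of 7 on that chromosome. The 1056-kb stretch at chr5:101341180-102396708 held 10.

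The isolated share of gained regions differed between chromosomes. It was highest on X, where 86 of 342 gained regions were isolated (25.1%, interval 20.8 to 30.0%), and on chromosome 18, with 110 of 594 (18.5%, 15.6 to 21.8%). It was lowest on chromosomes 7 (7.71%, interval 6.2 to 9.54%) and 11 (7.93%, 6.53 to 9.60%), and the median of the 20 chromosomes was 11.8%. X also had the fewest uninduced peaks, a mean of 5.66 per Mb over the 2 uninduced libraries, and 52.2% of its length lay beyond 50 kb of any of them. Across the 20 chromosomes the isolated share and the number of uninduced peaks per Mb went in opposite directions, with a Spearman rho of -0.750. Isolated regions per Mb of space beyond 50 kb instead went the same way as uninduced peaks per Mb (rho 0.403). The chromosomes share the same libraries and the rule uses those peaks, so these are descriptions.

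Per Mb of space beyond 50 kb the order of chromosomes was different. X had the lowest density of isolated regions, 1.01 per Mb, and chromosome 19 had the highest, 5.10 per Mb, although only 8.89% of its gained regions were isolated (77 of 866). Chromosome 10 followed with 4.01 per Mb, and the median was 2.32 per Mb. Chromosome 18 had both a high share and a high density, 3.31 per Mb. Of the 568 gained regions on chromosome 3 between 85 and 120 Mb, 42 were isolated, among them the strong region at chr3:99342694-99345056. This was a smaller share than over the whole chromosome, where 141 of 1088 gained regions were isolated (13.0%). Median scores of isolated regions by chromosome ran from 114 on chromosome 5 to 153 on chromosome 8 in induced replicate 1.

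**Figure D5:**
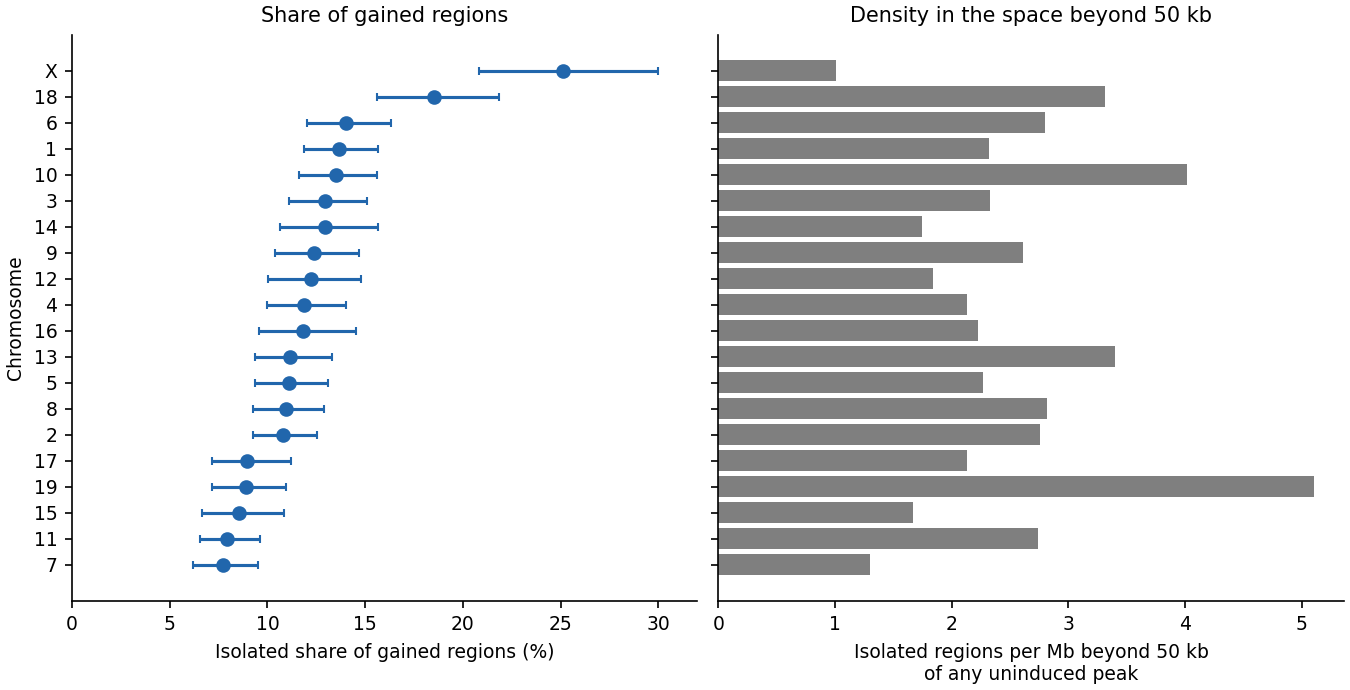
Left, isolated share of gained regions in percent by chromosome, with 95% Wilson intervals; right, isolated regions per Mb of space beyond 50 kb of any uninduced peak, in the same order of chromosomes. X is highest in share (25.1%) and lowest in density (1.01 per Mb), and chromosome 19 is highest in density (5.10 per Mb).

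The number of isolated regions rested strongly on uninduced replicate 2. Without that library 5398 regions would be isolated (17.7% of the gained regions), and without induced replicate 2 the number would be 3493; leaving out a library raises the count by itself, since fewer lists must meet the rule. With all lists cut to the length of the shortest, 31960 peaks, 865 regions were isolated (13.3% of the gained regions), and 605 of them were among the 2159.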

How the data were processed

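PU.1 ChIP-seq peak lists of 2 induced and 2 uninduced libraries and 1 merged list per condition were used; 2 input samples have no list here. Per the submitters' processing notes, Trim Galore, Bowtie, MACS 1.4.1 and build mm9 were used. No source used here states the control, the read filters or how replicates were merged. Each deposited list gives chromosome, start, end, name and a score, and the score is the value the authors deposited for each peak, on a scale that the sources used here do not state. MACS scores rise as a peak's p-value falls.

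Samples were grouped by title. Python 3.11.15, NumPy 2.4.6, pandas 2.3.3, SciPy 1.17.1 and matplotlib 3.10.9 were used. Distances are edge to edge. Where a region held several peaks of a list, the highest score was taken. The code was checked on simulated lists. Members, lists and rules were chosen with earlier results of these data known. Named regions are the 10 strongest by the lower induced score, the 5 farthest from uninduced peaks, 3 on each side of the 50 kb limit and the 3 largest groups, ties going to the wider; other positions were named after their values were seen. Planned descriptions of motifs, transcription starts and gene lists were not made, since they need sequence or annotation of mm9. Alternatives were limits of 20 and 100 kb, scores of at least 100, 50% overlap, equal list lengths, the merged uninduced list and leaving out each library.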

Additional observations from a re-analysis of the deposited data

How the results depend on the processing

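No paired analysis was possible because presence and absence in 2 lists against 2 gives no test to which a replicate block could be added. The number of isolated regions was 5317 with a limit of 20 kb, 749 with 100 kb, and 865 with lists of equal length. It ranged from 2650 to 5398 when a library was left out, the highest without uninduced replicate 2. It was 2653 with scores of at least 100, of which 967 were among the 2159 reported, since weak uninduced peaks were dropped too; it was 2133 with 50% overlap and 1993 with the merged uninduced list added. The isolated share of gained regions was 28.9% at 20 kb, 4.07% at 100 kb and 19.6% with scores of at least 100, and ranged from 11.1 to 17.7% when a library was left out. The share of isolated regions within 50 kb of another ranged from 29.9 to 61.0% over all alternatives. The difference in median score from other gained regions in induced replicate 2 was 5.42 as reported, -0.05 with 50% overlap and -4.56 without uninduced replicate 2, where it changed sign, and it ranged from -4.56 to 4.08 when a library was left out. In induced replicate 1 it was negative under all alternatives, from -22.8 to -3.27. Except where an alternative changes the limit or the number of lists by construction, the cause was not tested. Depth is unknown, so a site without a listed peak may have been bound below the threshold.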
